A study of Mus musculus with 23 samples.

Results

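The testis of the CD-1 mouse was compared at 10.5 and 6.5 days postpartum (dpp) by RNA-seq of whole, uncultured tissue. The libraries were chosen by their labels, in vivo testis of these ages, less 2 columns described below: 3 fresh libraries at 10.5 dpp, and at 6.5 dpp 1 fresh library (replicate 2) and 3 libraries of tissue that had gone through controlled slow freezing (CSF), a cryopreservation protocol, before RNA extraction. These 7 libraries were part of 23 deposited columns, 22 of them distinct, the rest being older testes and testis fragments cultured fresh or after CSF. All mice were wild type, and no treatment other than freezing set the libraries apart. At 6.5 dpp, fresh replicate 3 was left out because it equalled fresh replicate 2 in every gene, and fresh replicate 1 was left out because it correlated at 0.985 (Spearman, across genes) with a testis cultured to day 16 and at 0.928 with fresh replicate 2. The labels call replicates separate samples without naming animals, so p-values measure the spread between these samples. Since 3 of the 4 libraries at 6.5 dpp were frozen and none at 10.5 dpp was, age and freezing cannot be fully told apart. One passage of the study's methods lists a different age in place of 10.5 dpp. The age in the labels was followed.

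In the mouse the first spermatogenic wave starts in the days after birth, when gonocytes resume division and become spermatogonia. Retinoic acid then drives the KIT-positive, differentiating spermatogonia towards meiosis by inducing Stra8, and the first preleptotene and leptotene spermatocytes follow. Over the same period Sertoli cells slow their division and mature, and the fetal Leydig cells are gradually replaced by the adult population. The comparison asks which genes differed between a testis whose germ cells are mostly spermatogonia and one in which meiosis is beginning.

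Whole-tissue counts were given per gene, and levels are stated as CPM, the counts scaled to a common library total. In bulk tissue, fewer cells of a type and less RNA per cell cannot be told apart, and this holds for every level given here. Library totals ranged from 28351546 to 54986423 counts. As a check of the tissue, Sertoli cell genes summed to 10972 to 15664 CPM over the 7 libraries and spermatid genes to 103 to 137 CPM. CSF replicate 3 stood apart from the other 6 libraries. It had the lowest total, its Spearman correlations with the others were 0.876 to 0.92 against 0.972 to 0.997 among the rest, and the 82 ribosomal protein genes summed to 27835 CPM against 7846 to 12208. Its deviation followed transcript length: with genes split by length into 5 bins of equal size, the shortest bin lay 0.69 log2 units above the other 6.5 dpp libraries and the longest differed by -1.11, whereas no other library moved by more than 0.14 in any bin, as the plot of deviations by transcript length shows.

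**Figure D1:**
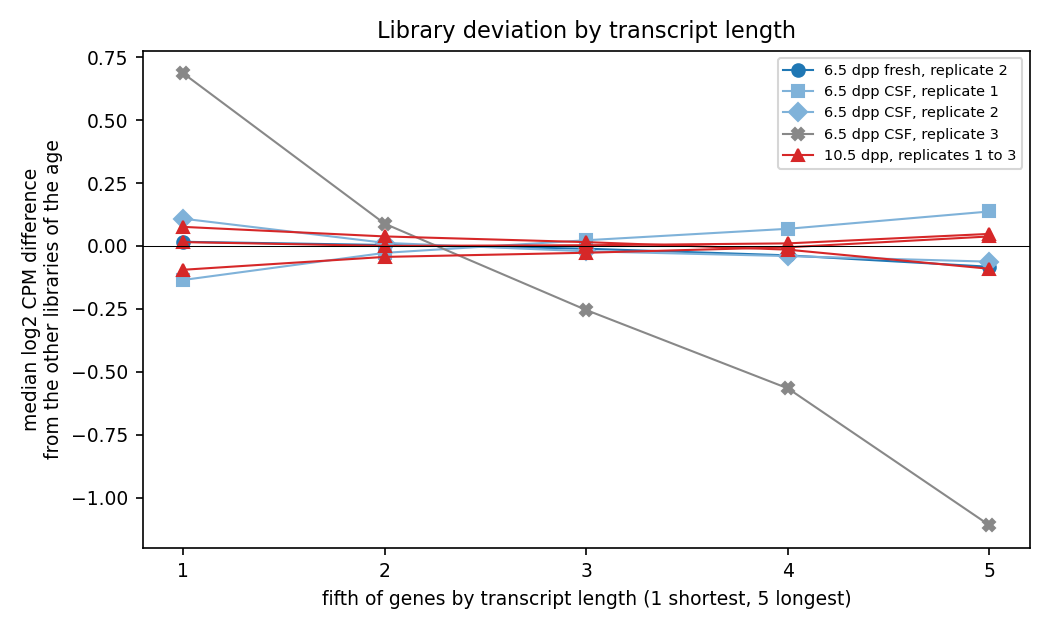
Median log2 CPM difference of each library from the other libraries of its age (for the 6.5 dpp libraries, CSF replicate 3 left out of the reference), in 5 bins of genes ordered by transcript length from shortest to longest. CSF replicate 3 runs from 0.69 to -1.11 and the other 6 libraries stay between -0.14 and 0.14.

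With all 7 libraries, 0 of 16343 genes tested were higher and 0 were lower at 10.5 dpp at an adjusted p under 0.05 (0% in each direction, edgeR quasi-likelihood test), although 2073 had an unadjusted p under 0.05. On the same libraries DESeq2 called 303 genes higher (1.4% of 21597) and 330 lower (1.53%), and limma voom with sample quality weights, which gave CSF replicate 3 a weight of 0.0674, called 785 and 706. Without CSF replicate 3 the edgeR test called 494 genes higher (3.02% of 16334) and 498 lower (3.05%). At a stricter limit, 4-fold and an adjusted p of at most 0.001, it called 0 genes in either direction with 7 libraries and with 6, where DESeq2 called 17 and 18 with 7 libraries and 19 and 19 with 6. Since 1 library decided the calls, "rose" and "fell" below refer to the 6-library test, and the value of CSF replicate 3 is printed beside each gene described in full. A value that directly follows a gene in parentheses is its log2 fold change in that test.

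The changes were small. Among the genes that rose the median log2 fold change was 0.88, with 193 genes at 2-fold or more and 31 at 4-fold or more. Among those that fell the median was 0.74 in size, with 141 at 2-fold or more and 25 at 4-fold or more. CSF replicate 3, which these calls did not use, lay below all 3 libraries of 10.5 dpp in 418 of the 494 genes that rose (84.6%, against 52.9% of all genes tested) and above them in 320 of the 498 that fell (64.3%, against 37.3%). Over all genes tested, 13.7% had every 10.5 dpp library above all 4 libraries of 6.5 dpp and 7.66% had every one below. The 6-library calls were sensitive to the 10.5 dpp libraries: 137 genes were higher and 180 lower without replicate 1, 128 and 98 without replicate 2, and 159 and 124 without replicate 3. Leaving out CSF replicate 2 of 6.5 dpp gave 321 and 304, and without the fresh library or CSF replicate 1 the counts were 507 or more. Set against the fresh library alone, with the frozen ones as a group of their own in the fit, 22 genes were higher and 44 lower. Set against the frozen libraries alone, 704 were higher and 711 lower, and with fresh replicate 1 put back into the 6.5 dpp group 0 genes passed in either direction while 885 had an unadjusted p under 0.05. That library is the one left out for its likeness to a cultured testis.

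Many meiotic genes rose. Of 71 genes tested from lists for meiotic entry, the synaptonemal complex with its axis, and recombination, 34 rose (47.9%, against 3.02% of all genes tested) and 0 fell (3 lower at an unadjusted p under 0.05 by edgeR, 0 lower by DESeq2 with 7 libraries), with a median log2 fold change of 0.52 against -0.01 over all genes. The log2 fold change was above 0 in 62 of the 71. All 3 libraries of 10.5 dpp lay above all 4 of 6.5 dpp in 37, where the share over all genes was 13.7%. With all 7 libraries in the fit the median was 0.45, and DESeq2 then called 21 of the 71 higher. Against the fresh library alone the medians of the 3 lists were 0.42, 0.64 and 0.54. Their summed level was 4071 to 4607 CPM in the 3 libraries of 6.5 dpp, 4719 CPM in CSF replicate 3 and 5170 to 5700 CPM at 10.5 dpp. Germ line genes expressed at several stages summed to 2303 to 2715 CPM at 6.5 dpp, 3256 CPM in CSF replicate 3 and 2636 to 2894 CPM at 10.5 dpp. Their part in the meiotic result was not tested.

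In the meiotic entry list 9 of 20 genes rose and 0 fell (45% and 0%, against 3.02% and 3.05% of all genes tested, median log2 fold change 0.36). The list summed to 1976 to 2429 CPM at 6.5 dpp, 2611 CPM in CSF replicate 3 and 2318 to 2596 CPM at 10.5 dpp. These sums overlapped between the ages. Those of the synaptonemal complex (1420 to 1505, then 1823 to 2044 CPM) and recombination lists (883 to 1055.5, then 1302 to 1457 CPM) did not. Meiosin, the partner with which STRA8 switches on the meiotic programme (listed as Bhmg1, gene 243866, chromosome 7), had the smallest p of all genes that rose. It stood at 14.03 CPM in the fresh library, 13.6, 9.15 and 9.24 CPM in CSF replicates 1 to 3 and 50.9, 73.8 and 51.6 CPM at 10.5 dpp. The groups did not overlap, and the log2 fold change was 2.24 ± 0.20 (SE), adjusted p = 0.0024. Stra8 itself moved less. It stood at 107 CPM in the fresh library, 123, 107 and 178 CPM in CSF replicates 1 to 3 and 164, 164 and 152 CPM at 10.5 dpp, a log2 fold change of 0.49 ± 0.09 (SE), adjusted p = 0.0181 without CSF replicate 3, which lay above every library of 10.5 dpp. Prdm9, the histone methyltransferase that marks recombination hotspots, stood at 6.096 CPM in the fresh library, 7.799, 4.501 and 4.797 CPM in CSF replicates 1 to 3 and 20.7, 25.6 and 19.6 CPM at 10.5 dpp, and its log2 fold change was 1.82 ± 0.20 (SE), adjusted p = 0.00306. Rad51ap2 went from between 0.811 and 1.95 CPM in the 4 libraries of 6.5 dpp to between 3.66 and 7.29 CPM (log2 fold change 1.99 ± 0.34 (SE), adjusted p = 0.013). The groups were separate for both of these genes.

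Meioc, needed to stay in meiotic prophase, rose to a log2 fold change of 1.13, adjusted p = 0.0144, but CSF replicate 3 had its highest level of all 7 libraries, 95.9 CPM. Zfp541 (1.34, adjusted p = 0.00298) and its partner Kctd19 (1.49, adjusted p = 0.0384), which act together later in prophase, both rose from low levels, at most 7.49 and 0.635 CPM at 6.5 dpp. Ccnb3, a meiotic cyclin, rose (1.21, adjusted p = 0.0243), and Sycp3 belongs to this list as well as to the next. Of the 11 genes that did not pass, 2 act around the decision to enter meiosis. Ythdc2, the RNA-binding partner of MEIOC, had a log2 fold change of 0.39, adjusted p = 0.0776. For Rec8, a meiotic cohesin that responds to retinoic acid, it was 0.34, adjusted p = 0.301.

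**Figure D2:**
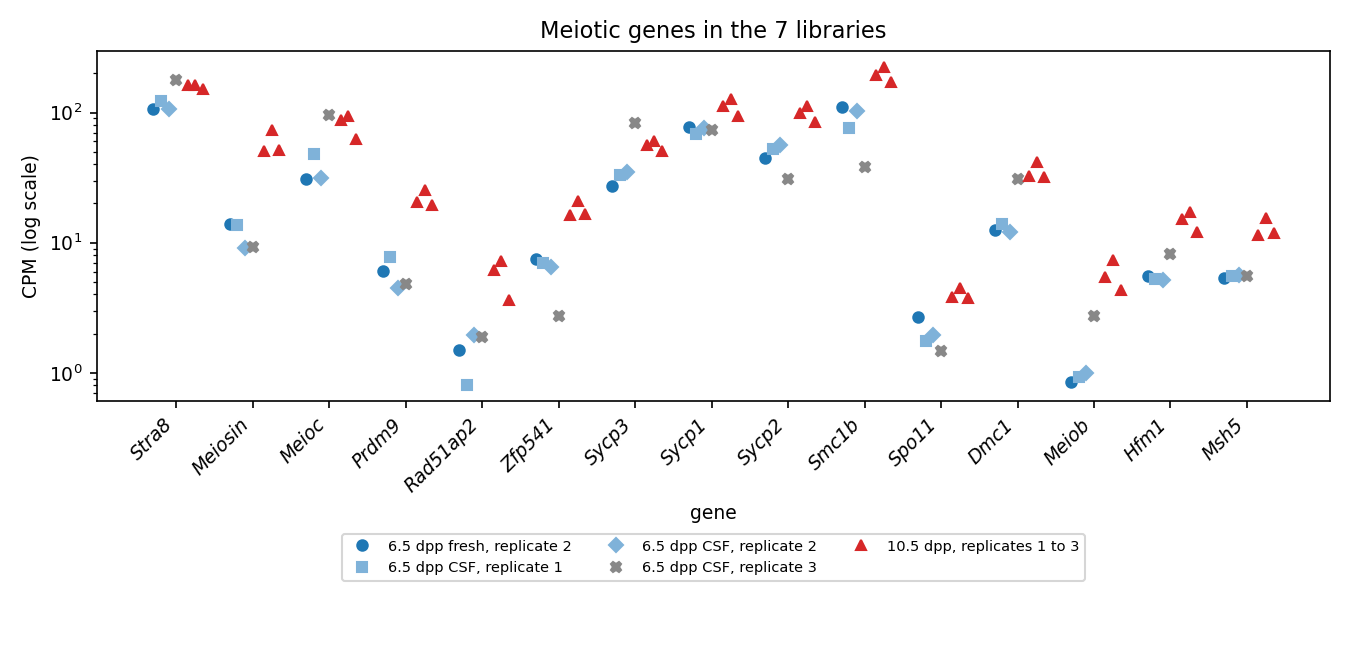
CPM on a log axis of 15 meiotic genes in each of the 7 libraries, with the fresh library as a circle, CSF replicates 1 and 2 as a square and a diamond, CSF replicate 3 as a grey cross and the 3 libraries of 10.5 dpp as red triangles. The triangles lie above every 6.5 dpp symbol for Meiosin, Prdm9, Rad51ap2 and Meiob, while the grey cross of Stra8, Meioc and Sycp3 lies above them.

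Of the synaptonemal complex and axis genes, which build the protein scaffold that pairs homologous chromosomes, 11 of 22 rose and 0 fell (median 0.58). Their shares were 50% and 0%, against 3.02% and 3.05% of all genes tested. Sycp3, of the lateral element, stood at 27.2, 33.3 and 34.7 CPM in the 3 libraries at 6.5 dpp, 82.4 CPM in CSF replicate 3 and 56.6, 60.7 and 50.99 CPM at 10.5 dpp (log2 fold change 0.80 ± 0.12 (SE), adjusted p = 0.00814). CSF replicate 3 was above the 10.5 dpp libraries. Sycp2, its partner in the lateral element, stood at 44.6, 52.03 and 55.9 CPM in the 3 libraries at 6.5 dpp, 31.1 CPM in CSF replicate 3 and 99.3, 112 and 85.1 CPM at 10.5 dpp (log2 fold change 0.94 ± 0.13 (SE), adjusted p = 0.00564). Sycp1, the transverse filament, stood at 77.5, 68.3 and 76.7 CPM in the 3 libraries at 6.5 dpp, 73.3 CPM in CSF replicate 3 and 112, 127 and 93.4 CPM at 10.5 dpp (log2 fold change 0.56 ± 0.12 (SE), adjusted p = 0.031). Both were separate between the ages in all 7 libraries.

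The meiotic cohesin subunits Smc1b (1.01, adjusted p = 0.00822) and Stag3 (0.52, adjusted p = 0.0231) rose with them, as did Syce1 of the central element (0.70, adjusted p = 0.00587). Terb1 (1.37, adjusted p = 0.00469) and Majin (1.53, adjusted p = 0.0228), which tether telomeres to the nuclear envelope, and Kash5 (1.29, adjusted p = 0.00594), which links that envelope to dynein, rose by more than 2-fold. Hormad1 (0.91, adjusted p = 0.0485) and Hormad2 (0.60, adjusted p = 0.043), which coat unsynapsed axes, passed narrowly, and CSF replicate 3 was above every 10.5 dpp library for both.

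Of the recombination genes 16 of 33 rose and 0 fell (48.5% and 0%, against 3.02% and 3.05% of all genes tested, median 0.52). Meiob, which binds single-stranded DNA at breaks, had the largest fold change of the 34. It stood at 0.856, 0.936 and 0.997 CPM in the 3 libraries at 6.5 dpp, 2.72 CPM in CSF replicate 3 and 5.46, 7.34 and 4.36 CPM at 10.5 dpp, a log2 fold change of 2.60 ± 0.23 (SE), adjusted p = 0.0024. Dmc1, the meiotic strand-exchange recombinase, stood at 12.4, 13.98 and 11.99 CPM in the 3 libraries at 6.5 dpp, 31.1 CPM in CSF replicate 3 and 32.4, 41.4 and 31.9 CPM at 10.5 dpp, a log2 fold change of 1.44 ± 0.13 (SE), adjusted p = 0.00251. In both, CSF replicate 3 lay between the other 6.5 dpp libraries and the 10.5 dpp ones, for Dmc1 just under the lowest of these.

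Spo11, the enzyme that makes the breaks, rose from 1.48 to 2.69 CPM over the 4 libraries of 6.5 dpp to 3.73 to 4.45 CPM (log2 fold change 0.88 ± 0.21 (SE), adjusted p = 0.0399). Spo11 lost this call in 5 of the 6 fits that each left out 1 more library. The genes for its helpers moved the same way: Gm960, which encodes its partner subunit (0.95, adjusted p = 0.00667), Mei1 (1.27, adjusted p = 0.00402) and Iho1 (0.77, adjusted p = 0.012). Of the crossover genes, the helicase Hfm1 rose (1.46, adjusted p = 0.00303), and so did Msh5 (1.21, adjusted p = 0.00408) and its partner Msh4 (0.79, adjusted p = 0.0441), Shoc1 (0.89, adjusted p = 0.0109) and Cntd1 (0.84, adjusted p = 0.0412). M1ap (0.95, adjusted p = 0.00827), Tex15 (0.60, adjusted p = 0.0366), Tex11 (0.42, adjusted p = 0.0417) and 4930432K21Rik, which encodes BRME1 (0.52, adjusted p = 0.0466), complete the list of those that passed. Spata22, whose product works with MEIOB, missed the threshold at a log2 fold change of 1.05, adjusted p = 0.0652, with the ages separate in all 7 libraries.

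The promoters of the 5 genes with the largest log2 fold change among these 34 for which the RefSeq promoter table (GRCm38.p6) held a window are shown because the genes moved together. Each sequence is the 200 bases before the most 5′ start site in that table, written 5′ to 3′ on the strand of the gene. Capitals mark matches to CNCCTCAG, the motif reported for STRA8 and MEIOSIN, to CACGTG, an E-box, or to GCGGGAA, an E2F-type site, on either strand. Of the 34 genes 27 had a window.
Meiosin (chr7:19118345-19118544, minus strand): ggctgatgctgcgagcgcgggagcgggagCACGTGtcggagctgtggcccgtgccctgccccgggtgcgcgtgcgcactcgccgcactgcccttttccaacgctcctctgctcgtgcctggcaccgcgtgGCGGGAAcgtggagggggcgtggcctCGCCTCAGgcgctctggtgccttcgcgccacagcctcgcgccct
Rad51ap2 (chr12:11455855-11456054, plus strand): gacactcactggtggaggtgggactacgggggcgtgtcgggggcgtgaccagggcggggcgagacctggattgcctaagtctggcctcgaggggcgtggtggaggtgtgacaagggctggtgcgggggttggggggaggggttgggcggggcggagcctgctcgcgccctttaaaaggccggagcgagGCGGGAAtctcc
Prdm9 (chr17:15564355-15564554, minus strand): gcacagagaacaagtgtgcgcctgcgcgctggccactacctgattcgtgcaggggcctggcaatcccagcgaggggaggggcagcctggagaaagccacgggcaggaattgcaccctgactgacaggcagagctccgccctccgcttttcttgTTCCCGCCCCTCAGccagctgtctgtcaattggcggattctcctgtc
Hfm1 (chr5:106925891-106926090, minus strand): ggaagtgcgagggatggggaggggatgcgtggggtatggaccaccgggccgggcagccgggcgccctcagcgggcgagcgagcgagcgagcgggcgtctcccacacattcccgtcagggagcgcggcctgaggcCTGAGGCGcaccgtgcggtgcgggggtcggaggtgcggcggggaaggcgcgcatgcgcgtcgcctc
Dmc1 (chr15:79605110-79605309, minus strand): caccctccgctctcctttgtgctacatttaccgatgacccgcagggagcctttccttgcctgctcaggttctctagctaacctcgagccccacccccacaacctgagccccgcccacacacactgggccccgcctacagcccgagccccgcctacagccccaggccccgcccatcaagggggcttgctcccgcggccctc

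Meiosin held 1 match to each of the 3 motifs, with CNCCTCAG starting at -44 and CACGTG at -171, counted back from the start site. In Prdm9 a CNCCTCAG match at -41 shared 1 base with a GCGGGAA match read on the other strand. Hfm1 held CNCCTCAG alone, on the other strand at -66, Rad51ap2 held GCGGGAA alone at -12, and Dmc1 held no match in this window. CNCCTCAG was found in 6 of the 27 windows (22.2%), against 13.6% of 59 windows of tested genes of the 3 lists and 5.21% of the first windows of the 27025 genes with a window outside chromosome 18. It was found in 8.54% of 398 windows of genes that rose, 6.07% of 379 of genes that fell and 5.91% of 12872 of genes tested. For CACGTG the shares in the same order were 22.2%, 18.6%, 5.27%, 7.54%, 5.54% and 7.26%, and for GCGGGAA 25.9%, 23.7%, 3.33%, 8.04%, 6.33% and 5.74%. A match is a description of the sequence and no evidence of binding.

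**Figure D3:**
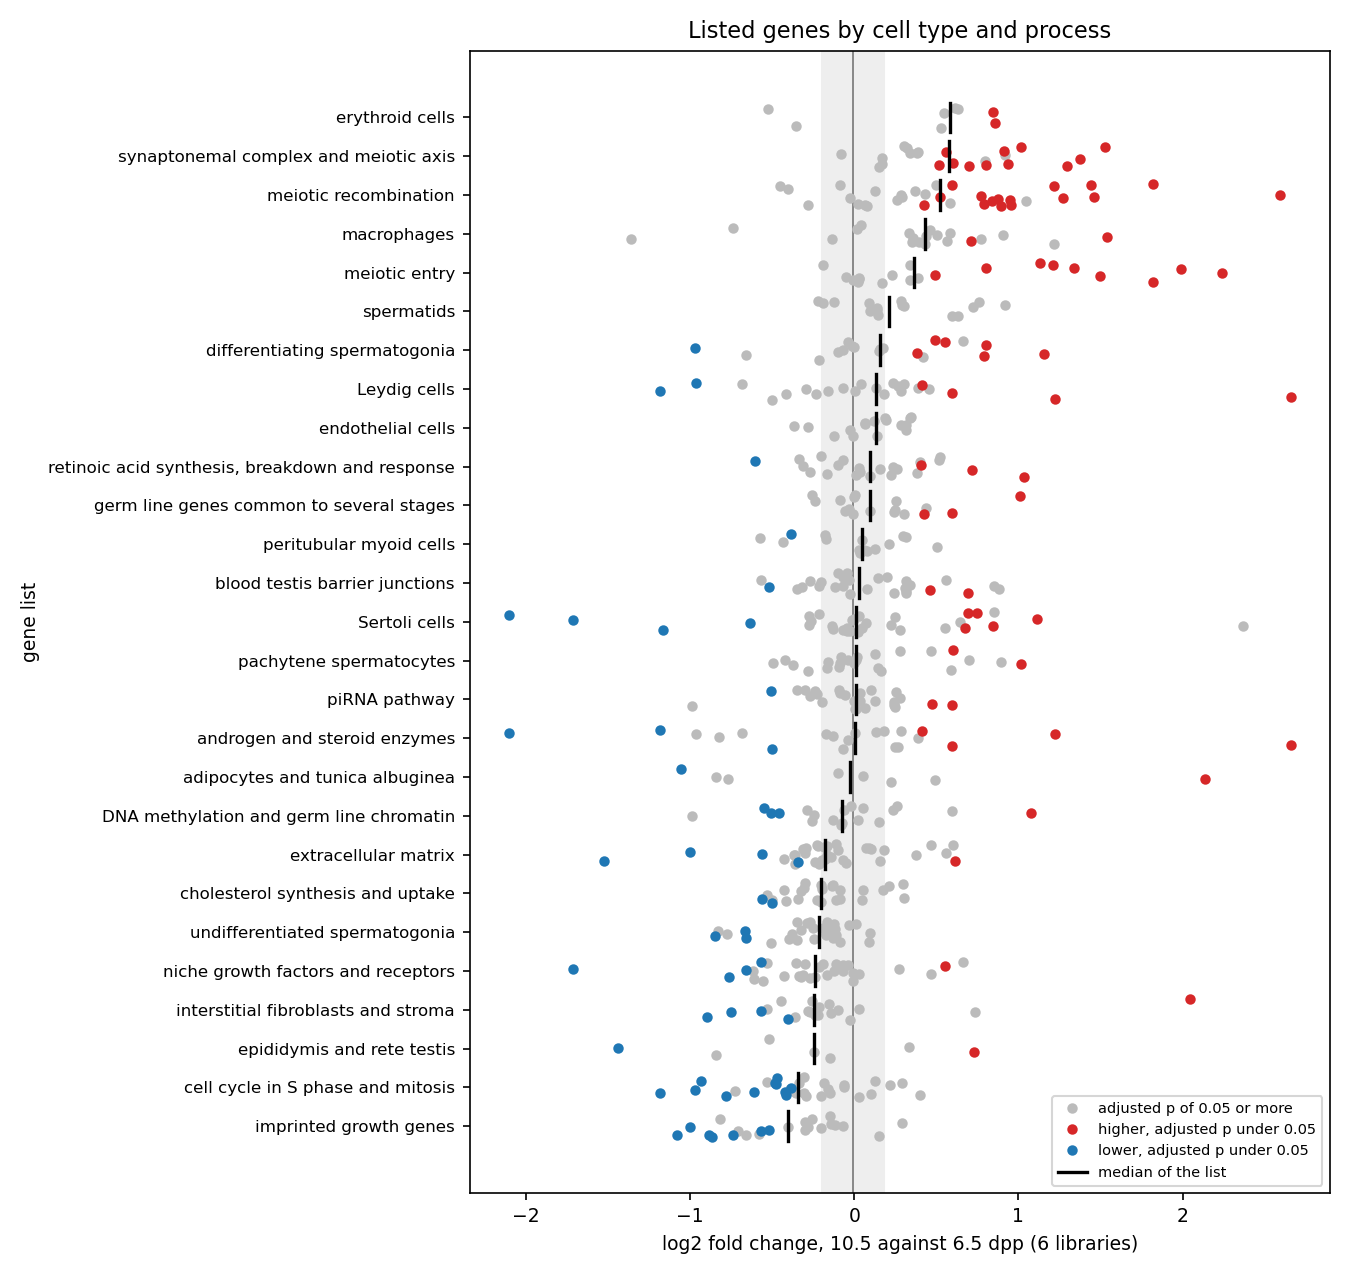
Log2 fold change at 10.5 against 6.5 dpp (6 libraries, edgeR) of every tested gene of 27 lists, 1 row per list ordered by its median (black tick), with genes at an adjusted p under 0.05 in red when higher and blue when lower. The grey band spans the quartiles of all genes tested, -0.19 to 0.18, and the 3 meiotic lists hold red points and no blue ones.

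The undifferentiated and the differentiating spermatogonial list had medians on opposite sides of 0 with 6 libraries. With all 7 libraries both were close to 0, at -0.09 and 0.01. Of 30 undifferentiated spermatogonial genes 0 rose and 3 fell (0% and 10%, against 3.02% and 3.05% of all genes tested). The median was -0.22, with 3 of 30 above 0. The list summed to 1412 to 1493 CPM at 6.5 dpp, 796 CPM in CSF replicate 3 and 1212 to 1405 CPM at 10.5 dpp. The 3 that fell were Id4, a marker of the stem cell pool (-0.66, adjusted p = 0.0355), and the transcription factor genes Bcl6b (-0.67, adjusted p = 0.011) and Egr4 (-0.85, adjusted p = 0.00803), which respond to GDNF. CSF replicate 3 lay below every library of 10.5 dpp for Bcl6b and Egr4, and above them for Id4.

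Of 19 differentiating spermatogonial genes 6 rose and 1 fell (31.6% and 5.26%, against 3.02% and 3.05% of all genes tested, median 0.15). The list summed to 2447 to 2703 CPM at 6.5 dpp, 2723.5 CPM in CSF replicate 3 and 2574 to 2615 CPM at 10.5 dpp, so its sums overlapped. Kit, the receptor that marks these cells, stood at 117, 151 and 119.6 CPM in the 3 libraries at 6.5 dpp, 69.1 CPM in CSF replicate 3 and 185, 199.8 and 191 CPM at 10.5 dpp (log2 fold change 0.55 ± 0.11 (SE), adjusted p = 0.0224). The groups were separate, and CSF replicate 3 was the lowest library. The X-linked germ cell genes Tex16 (0.79, adjusted p = 0.00827), Rhox13 (0.80, adjusted p = 0.0272), Esx1 (1.15, adjusted p = 0.034) and Tktl1 (0.38, adjusted p = 0.0401) rose, and Stra8 is the sixth. For Rhox13 and Tktl1, as for Stra8, CSF replicate 3 lay above every library of 10.5 dpp. Ccnd2, a cyclin of dividing spermatogonia, fell (-0.97, adjusted p = 0.00587), with CSF replicate 3 within the range of 10.5 dpp.

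Later stages were hardly represented. Of 23 tested genes typical of pachytene spermatocytes 2 rose and 0 fell (8.7% and 0%, against 3.02% and 3.05% of all genes tested). They were Hspa2, a testis chaperone (0.60, adjusted p = 0.0318), and Ybx2, which binds germ cell mRNAs (1.02, adjusted p = 0.0409). Each lay between 4.43 and 60.7 CPM in all 7 libraries, where the 22.5 dpp testes averaged 1702 and 1311 CPM. Of 22 spermatid genes 16 could be tested and 0 passed in either direction by edgeR (2 higher and 0 lower had an unadjusted p under 0.05) or by DESeq2 with 7 libraries, and the list summed to 106 to 125 CPM at 6.5 dpp, 103 CPM in CSF replicate 3 and 127 to 137 CPM at 10.5 dpp. Of 17 genes common to several germ cell stages 3 rose (17.6%, against 3.02% of all genes tested). They were Tex101, a germ cell surface protein (1.01, adjusted p = 0.00718), with Tex15 and Tex11. CSF replicate 3 lay within the 10.5 dpp range for Tex101 and Tex11. In the piRNA pathway, which silences transposons, 2 of 26 rose, Tdrd9 (0.48, adjusted p = 0.0444) and Tex15, and 1 fell, Morc1 (-0.50, adjusted p = 0.0484), 7.69% and 3.85% against 3.02% and 3.05% of all genes tested, which is near the background. Of 19 genes of DNA methylation and germ line chromatin 1 rose, Ctcfl, the germ line paralogue of CTCF (1.08, adjusted p = 0.0365), and 3 fell, Tet1 (-0.55, adjusted p = 0.0428), H2ax (-0.46, adjusted p = 0.0259) and Morc1. Their shares were 5.26% and 15.8%, against 3.02% and 3.05% of all genes tested.

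Of 23 retinoic acid genes 3 rose and 1 fell (13% and 4.35%, against 3.02% and 3.05% of all genes tested, median 0.10). Aldh1a2, a retinaldehyde dehydrogenase that makes retinoic acid and is strong in spermatocytes, stood at 68.1, 81.3 and 83.6 CPM in the 3 libraries at 6.5 dpp, 71.1 CPM in CSF replicate 3 and 124, 144 and 120.5 CPM at 10.5 dpp, separate between the ages (log2 fold change 0.72 ± 0.11 (SE), adjusted p = 0.00857). Rbp4, the retinol carrier, rose (1.03, adjusted p = 0.00909) with CSF replicate 3 at the level of 10.5 dpp, and Crabp1, a retinoic acid binding protein, rose (0.41, adjusted p = 0.0481). CSF replicate 3 was above every other library for Crabp1, and with all 7 libraries in the fit its log2 fold change was -0.04. Stra6, the retinol uptake receptor, fell (-0.60, adjusted p = 0.00587), with CSF replicate 3 below every library of 10.5 dpp. The main enzyme that degrades retinoic acid in peritubular cells, Cyp26b1, stood at 324, 281 and 251 CPM in the 3 libraries at 6.5 dpp, 156 CPM in CSF replicate 3 and 376, 405 and 368 CPM at 10.5 dpp. The ages were separate, but the adjusted p was 0.0587 (log2 fold change 0.40).

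Of 31 genes for niche growth factors and their receptors 1 rose, Kit, and 4 fell (median -0.24, 5 of 31 above 0). Their shares were 3.23% and 12.9%, against 3.02% and 3.05% of all genes tested, so the share that rose was near the background. Gdnf, the Sertoli cell factor that maintains the stem cells, stood at 34.3, 37.1 and 45.2 CPM in the 3 libraries at 6.5 dpp, 15.9 CPM in CSF replicate 3 and 26.4, 21.8 and 26.5 CPM at 10.5 dpp (log2 fold change -0.66 ± 0.14 (SE), adjusted p = 0.0255). The 10.5 dpp libraries lay below the 3 libraries tested, and CSF replicate 3 lay lower still. Cxcl12, a chemokine of the niche, fell (-0.76, adjusted p = 0.0216) with all 7 libraries separate, and Wnt5a (-0.57, adjusted p = 0.0323) fell with CSF replicate 3 lowest. Inhba, the activin subunit gene, is given with the Sertoli cell genes.

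Of 32 Sertoli cell genes 5 rose and 4 fell (15.6% and 12.5%, against 3.02% and 3.05% of all genes tested) and 23 did not pass (median 0.01). The list summed to 10972 to 14256 CPM at 6.5 dpp, 15664 CPM in CSF replicate 3 and 14112 to 14656 CPM at 10.5 dpp. Hsd17b1, a 17β-hydroxysteroid dehydrogenase, stood at 49.9 CPM in the fresh library, 71.5, 107 and 137 CPM in CSF replicates 1 to 3 and 16.9, 16.9 and 19.99 CPM at 10.5 dpp, and its log2 fold change of -2.11 ± 0.24 (SE), adjusted p = 0.00348 was the largest drop of the list. All 4 libraries of 6.5 dpp were above those of 10.5 dpp, the fresh library being the lowest of the 4. Inhba stood at 60.1 CPM in the fresh library, 98.7, 131 and 76.3 CPM in CSF replicates 1 to 3 and 37.04, 25.3 and 26.8 CPM at 10.5 dpp (log2 fold change -1.72 ± 0.26 (SE), adjusted p = 0.00822). Here too the groups were separate and the fresh library was the lowest of its age. Amh, the hormone of immature Sertoli cells, stood at 652 CPM in the fresh library, 430.4, 615 and 473 CPM in CSF replicates 1 to 3 and 348, 371 and 388 CPM at 10.5 dpp (log2 fold change -0.64 ± 0.15 (SE), adjusted p = 0.0369), a smaller step, and Krt18, a keratin of the immature cell, fell by a log2 fold change of -1.17, adjusted p = 0.0391.

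Those that rose were Clu, which encodes the secreted protein clusterin and stood at 2819.7, 1977 and 1763 CPM in the 3 libraries at 6.5 dpp, 1875 CPM in CSF replicate 3 and 3543, 3896 and 3745 CPM at 10.5 dpp (log2 fold change 0.75 ± 0.16 (SE), adjusted p = 0.0294), Gata1 (0.84, adjusted p = 0.0243), a transcription factor of Sertoli cells that is also an erythroid gene, Espn (0.69, adjusted p = 0.00785), an actin bundler of the ectoplasmic specialisation, Tsx (1.12, adjusted p = 0.013) and the cystatin gene Cst12 (0.68, adjusted p = 0.0399). Clu, Gata1 and Espn were separate in all 7 libraries, whereas CSF replicate 3 was above the 10.5 dpp range for Cst12 and inside it for Tsx. Of 28 genes of the blood-testis barrier, whose junctions Sertoli cells assemble as meiosis starts, 2 rose, Espn and N-cadherin, Cdh2 (0.46, adjusted p = 0.0432), and 1 fell, connexin 43, Gja1 (-0.52, adjusted p = 0.0224), 7.14% and 3.57% where all genes tested gave 3.02% and 3.05%, so the counts were near the background. Cldn11, the main claudin of the barrier, stood at 378, 246 and 135 CPM in the 3 libraries at 6.5 dpp, 268 CPM in CSF replicate 3 and 494, 477 and 412 CPM at 10.5 dpp. The ages were separate and the 6.5 dpp libraries ranged widely, and the log2 fold change of 0.85 had an adjusted p of 0.112.

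Of 23 Leydig cell genes 4 rose and 2 fell (17.4% and 8.7%, against 3.02% and 3.05% of all genes tested). The median was 0.13, and -0.02 with all 7 libraries. The list summed to 1689 to 2046 CPM at 6.5 dpp, 2046 CPM in CSF replicate 3 and 2056 to 2338 CPM at 10.5 dpp. Cyp17a1, which makes androgen precursors from pregnanes, stood at 127 CPM in the fresh library, 157, 160.2 and 241 CPM in CSF replicates 1 to 3 and 334, 376 and 340.5 CPM at 10.5 dpp and had a log2 fold change of 1.22 ± 0.11 (SE), adjusted p = 0.0024. All 3 libraries of 10.5 dpp exceeded all 4 of 6.5 dpp. Hsd3b6, the 3β-hydroxysteroid dehydrogenase of adult Leydig cells, stood at 0.188 CPM in the fresh library, 0.125, 0.0973 and 0.141 CPM in CSF replicates 1 to 3 and 0.606, 1.47 and 0.673 CPM at 10.5 dpp, a log2 fold change of 2.66 ± 0.46 (SE), adjusted p = 0.0134. Its groups were separate too, but at levels near the detection floor, and since Hsd3b1 is a close paralogue, how reads were divided between them is uncertain and was not tested. Lhcgr, the luteinising hormone receptor, rose (0.60, adjusted p = 0.0203), as did Fdx1 (0.41, adjusted p = 0.0284), the ferredoxin that feeds electrons to the side-chain cleavage enzyme, for which CSF replicate 3 was the highest library and the log2 fold change with all 7 libraries was -0.15.

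The 2 genes of the Leydig list that fell were Hsd17b3, the enzyme that makes testosterone, and Ptgds, a prostaglandin D synthase. Which cells carried their RNA at these ages was not tested, so the falls cannot be placed in Leydig cells. Hsd17b3 stood at 109 CPM in the fresh library, 125, 186 and 231 CPM in CSF replicates 1 to 3 and 68.1, 51.4 and 68.1 CPM at 10.5 dpp (log2 fold change -1.18 ± 0.20 (SE), adjusted p = 0.011), separate in all 7 libraries with the fresh library lowest at 6.5 dpp. For Ptgds the log2 fold change was -0.96, adjusted p = 0.0401. The enzymes that start steroid synthesis did not pass: Star, the cholesterol importer, had a log2 fold change of 0.13, adjusted p = 0.563, Cyp11a1, the side-chain cleavage enzyme, 0.39, adjusted p = 0.23, and Hsd3b1 0.18, adjusted p = 0.548. Of the 21 steroid enzyme genes 4 rose, Cyp17a1, Hsd3b6, Lhcgr and Fdx1, and 3 fell, Hsd17b1, Hsd17b3 and Hsd17b7 (-0.50, adjusted p = 0.0372). Their shares were 19% and 14.3%, against 3.02% and 3.05% of all genes tested. Hsd17b7, which also acts in cholesterol synthesis, had CSF replicate 3 within the 10.5 dpp range.

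**Figure D4:**
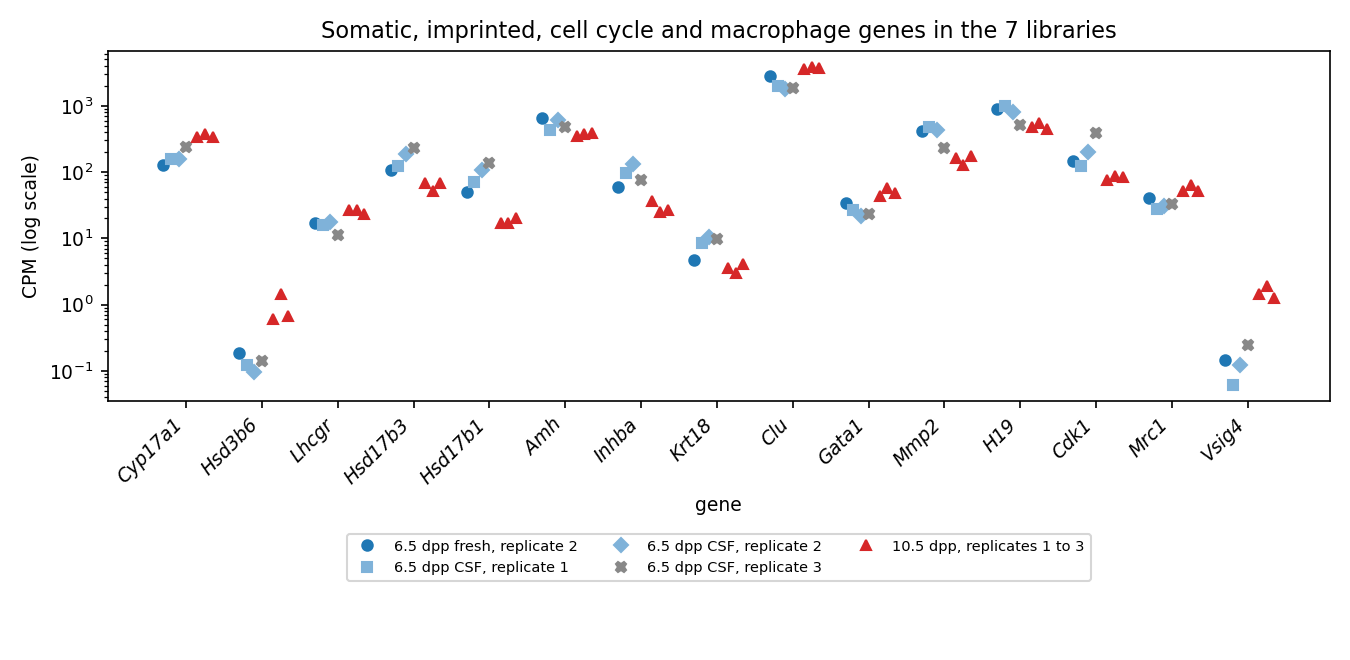
CPM on a log axis of 15 Leydig, Sertoli, matrix, imprinted, cell cycle and macrophage genes in each of the 7 libraries, with symbols for the libraries as in the plot of meiotic genes. The red triangles of 10.5 dpp lie above the 6.5 dpp symbols for Cyp17a1, Hsd3b6, Clu and Vsig4 and below them for Hsd17b1, Inhba, Mmp2 and Cdk1.

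Genes of the stroma and the matrix had medians below 0 with 6 libraries. Of 20 genes of interstitial fibroblasts and stroma 1 rose and 4 fell (5% and 20%, against 3.02% and 3.05% of all genes tested). The median was -0.25, with 3 of 20 above 0. The list summed to 6743 to 8138 CPM at 6.5 dpp, 4958 CPM in CSF replicate 3 and 5887 to 6396 CPM at 10.5 dpp. The falls were Lum (-0.75, adjusted p = 0.0289), Dpt (-0.90, adjusted p = 0.0145) and Fbln5 (-0.40, adjusted p = 0.0438), which encode matrix proteins and were separate in all 7 libraries, and Wnt5a. Ly6a, which encodes the surface antigen SCA-1, rose (2.04, adjusted p = 0.00996). Of 36 extracellular matrix genes 1 rose, Timp2, an inhibitor of matrix proteases (0.61, adjusted p = 0.00868), and 4 fell. Their shares were 2.78% and 11.1%, against 3.02% and 3.05% of all genes tested, so the share that rose was near the background. The median was -0.18, against 0.04 with all 7 libraries. Mmp2, the gelatinase, had the smallest p of all genes that fell. It stood at 424 CPM in the fresh library, 472, 435 and 231 CPM in CSF replicates 1 to 3 and 165, 127 and 175 CPM at 10.5 dpp, without overlap, a log2 fold change of -1.53 ± 0.13 (SE), adjusted p = 0.0024. The collagen cross-linking enzyme Lox (-0.998, adjusted p = 0.0331) and the collagen genes Col5a2 (-0.56, adjusted p = 0.0362) and Col6a2 (-0.34, adjusted p = 0.0466) also fell. Peritubular myoid genes gave 0 that rose and 1 of 15 that fell (6.67%, against 3.05% of all genes tested). It was the hedgehog receptor Ptch1 (-0.38, adjusted p = 0.0301), with CSF replicate 3 far lower at 80.2 CPM. Of 16 endothelial genes 0 passed by edgeR (3 higher and 2 lower had an unadjusted p under 0.05) and 0 by DESeq2 with 7 libraries.

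A part of the imprinted growth genes and of the cell cycle genes fell. Of 23 imprinted genes tested 7 fell (30.4%, against 3.05% of all genes) and 0 rose, the median log2 fold change was -0.41, and 2 of 23 were above 0. Their sum was 3185 to 3693 CPM at 6.5 dpp, 3459 CPM in CSF replicate 3 and 2466 to 2606 CPM at 10.5 dpp. H19, a maternally expressed non-coding RNA, stood at 899 CPM in the fresh library, 978, 798 and 506 CPM in CSF replicates 1 to 3 and 477, 551 and 443 CPM at 10.5 dpp (log2 fold change -0.88 ± 0.11 (SE), adjusted p = 0.00461). CSF replicate 3 lay inside the range of 10.5 dpp. Nnat (-1.08, adjusted p = 0.00718), Magel2 (-1.002, adjusted p = 0.031), Slc38a4 (-0.74, adjusted p = 0.0377), Ndn (-0.52, adjusted p = 0.0417) and the cell cycle inhibitor gene Cdkn1c (-0.57, adjusted p = 0.0481) were separate in all 7 libraries. Plagl1, a zinc finger regulator of other imprinted genes, fell (-0.87, adjusted p = 0.0195) with CSF replicate 3 lowest of all.

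Of 32 genes of a list for S phase and mitosis 11 fell (34.4%, against 3.05% of all genes tested) and 0 rose. The list also holds genes of cell cycle inhibitors, such as Cdkn2c, so its counts and median mix genes of opposite action. Its median was -0.34, with 6 of 32 above 0. The sum was 4325 to 4959.5 CPM at 6.5 dpp, 4678 CPM in CSF replicate 3 and 3685 to 3769.6 CPM at 10.5 dpp. Cdk1, the mitotic kinase, stood at 145 CPM in the fresh library, 123, 199 and 390.4 CPM in CSF replicates 1 to 3 and 76.7, 87.02 and 84.3 CPM at 10.5 dpp (log2 fold change -0.93 ± 0.16 (SE), adjusted p = 0.0125). All 4 libraries of 6.5 dpp were above those of 10.5 dpp, CSF replicate 3 far above. Cdkn2c, which encodes the kinase inhibitor p18INK4c, stood at 44.8 CPM in the fresh library, 50.9, 54.3 and 53.3 CPM in CSF replicates 1 to 3 and 21.8, 23.4 and 21.8 CPM at 10.5 dpp (log2 fold change -1.18 ± 0.11 (SE), adjusted p = 0.0024). The ages were far apart relative to the spread within each. The cyclin genes Ccnb2 (-0.78, adjusted p = 0.00881), Ccna2 (-0.61, adjusted p = 0.0151) and Ccnb1 (-0.47, adjusted p = 0.0289) fell, as did Aurkb (-0.48, adjusted p = 0.0224), Aurka (-0.42, adjusted p = 0.0272), Plk1 (-0.42, adjusted p = 0.0466) and Bub1b (-0.38, adjusted p = 0.031), which act in mitosis, and Mcm4 (-0.48, adjusted p = 0.0417) of the replicative helicase. Ccnd2, given with the spermatogonial genes, completes the 11.

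Macrophage and erythroid genes had medians above 0, at low levels. Of 20 macrophage genes 2 rose (10%, against 3.02% of all genes tested) and 0 fell, with a median of 0.43 and 17 of 20 above 0. The list summed to 107 to 178 CPM at 6.5 dpp, 168 CPM in CSF replicate 3 and 206 to 271 CPM at 10.5 dpp. Mrc1, the mannose receptor, stood at 41.3, 27.3 and 31.3 CPM in the 3 libraries at 6.5 dpp, 33.2 CPM in CSF replicate 3 and 51.2, 63.9 and 51.2 CPM at 10.5 dpp (log2 fold change 0.71 ± 0.16 (SE), adjusted p = 0.0331), and F13a1, a coagulation factor subunit made by tissue macrophages, stood at 18.7, 10.98 and 9.71 CPM in the 3 libraries at 6.5 dpp, 14.2 CPM in CSF replicate 3 and 34.4, 48.6 and 33.5 CPM at 10.5 dpp (log2 fold change 1.54 ± 0.24 (SE), adjusted p = 0.00968). Both were separate in all 7 libraries. The receptor for the macrophage growth factor, Csf1r, was separate too but missed the threshold (0.77, adjusted p = 0.0525), as was Adgre1, which encodes F4/80 (0.91, adjusted p = 0.0871). Of 8 erythroid genes, with a median of 0.58 and of -0.08 with all 7 libraries, 2 rose (25%, against 3.02% of all genes tested). They were the globin Hbb-bt (0.86, adjusted p = 0.00809), whose reads can be split with a near-identical copy, and Gata1. Hbb-bt was highest in CSF replicate 3, and with all 7 libraries its log2 fold change was -0.29.

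Markers of tissue that could come along with a dissected testis gave few calls. Of 7 epididymis and rete testis genes tested Pax2 rose (0.73, adjusted p = 0.0293) and Krt8 fell (-1.44, adjusted p = 0.0301). Each made 14.3%, against 3.02% and 3.05% of all genes tested. At 3 counts or fewer in each library stood 7 of the 16 genes of the list. The list summed to 23.03 to 30.1 CPM at 6.5 dpp, 25.01 CPM in CSF replicate 3 and 25.9 to 27.97 CPM at 10.5 dpp. Of 8 genes of adipocytes and the tunica albuginea Lrrn4 rose (2.14, adjusted p = 0.0228) and Lpl fell (-1.05, adjusted p = 0.00461). Each made 12.5%, against 3.02% and 3.05% of all genes tested. Lrrn4 was low at 6.5 dpp, with 0.919 CPM in the fresh library and 0.333, 0.268 and 0.0705 CPM in CSF replicates 1 to 3. It lost its call in 4 of the 6 fits that each left out 1 more library. Of 20 immediate early and heat shock genes 1 rose (5%, against 3.02% of all genes tested), Fos (0.92, adjusted p = 0.0241). Of 19 interferon-stimulated genes 0 passed by edgeR (2 higher and 1 lower had an unadjusted p under 0.05) or by DESeq2 with 7 libraries. Of 24 tested genes that the study assigned to freezing alone 1 fell (4.17%, against 3.05%), Kcnip1 (-0.83, adjusted p = 0.00822). The study drew that list from fresh and frozen libraries of this series, so it is no independent gauge of freezing here. These lists move with the groups as stated, and their part in the other results was not tested.

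A rule over all genes took, in each direction, the 12 genes with the smallest p among those that passed and did not overlap in all 7 libraries, leaving predicted genes unnamed. Of those that rose, 6 were germ line genes, Meiosin, Meiob, Dmc1, Zfp541 and Hfm1, described above, and Fbxo47, which is needed for stable synapsis. Fbxo47 stood at 2.92, 3.12 and 3.28 CPM in the 3 libraries at 6.5 dpp, 3.14 CPM in CSF replicate 3 and 10.04, 12.04 and 7.97 CPM at 10.5 dpp (log2 fold change 1.67 ± 0.18 (SE), adjusted p = 0.00303). Cyp2s1, a cytochrome P450, stood at 13.5, 12.998 and 8.93 CPM in the 3 libraries at 6.5 dpp, 6.42 CPM in CSF replicate 3 and 37.8, 40.6 and 40.5 CPM at 10.5 dpp (log2 fold change 1.73 ± 0.16 (SE), adjusted p = 0.0024). Vsig4, a complement receptor of resident macrophages, had the largest rise of the 12 and stood at 0.146, 0.0624 and 0.122 CPM in the 3 libraries at 6.5 dpp, 0.247 CPM in CSF replicate 3 and 1.46, 1.89 and 1.27 CPM at 10.5 dpp (log2 fold change 3.75 ± 0.35 (SE), adjusted p = 0.00251). Tpbgl rose from at most 2.33 CPM to between 10.7 and 23.6 CPM (2.97, adjusted p = 0.00303). The others were Cyp17a1, Alas1, the first enzyme of haem synthesis (0.92, adjusted p = 0.00278), and Inca1, which encodes an inhibitor of cyclin-dependent kinases (1.54, adjusted p = 0.00298).

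Of the 12 that fell, Pimreg (-0.98, adjusted p = 0.00298), Ube2c (-1.17, adjusted p = 0.00298) and Prr11 (-0.94, adjusted p = 0.00332) are genes of dividing cells, UBE2C being the ubiquitin-conjugating enzyme of the anaphase-promoting complex. Defb42, a β-defensin, had the largest drop and stood at 8.497, 5.18 and 4.99 CPM in the 3 libraries at 6.5 dpp, 24.9 CPM in CSF replicate 3 and 1.08, 0.667 and 0.818 CPM at 10.5 dpp (log2 fold change -2.87 ± 0.28 (SE), adjusted p = 0.00296). CSF replicate 3 held its highest level. Tesc, a calcium-binding protein gene, stood at 28.999, 30.2 and 40.9 CPM in the 3 libraries at 6.5 dpp, 67.2 CPM in CSF replicate 3 and 7.92, 11.6 and 9.71 CPM at 10.5 dpp (log2 fold change -1.80 ± 0.18 (SE), adjusted p = 0.00298), again highest in CSF replicate 3. Smad6, an inhibitor of BMP signalling (-1.16, adjusted p = 0.00298), Adcyap1r1, the PACAP receptor (-1.62, adjusted p = 0.00303), Omp (-1.90, adjusted p = 0.00298) and Islr2 (-1.22, adjusted p = 0.00298) fell by 2-fold or more, and Cdkn2c, Mmp2 and Hsd17b1, described above, complete the group.

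The older testes of the series, 3 libraries at 22.5 dpp and 2 at 36.5 dpp, set these steps in context, as values without a test. Meiob averaged 0.9298 ± 0.0709 CPM at 6.5 dpp without CSF replicate 3, 5.72 ± 1.51 at 10.5 dpp and 78.4 ± 12.2 at 22.5 dpp (SD, n = 3 each). Sycp3 averaged 31.7 ± 3.98, 56.1 ± 4.87 and 182 ± 15.8 CPM. For these 2 the step to 10.5 dpp was the smaller one. Meiosin averaged 58.8 ± 13.1 CPM at 10.5 dpp and 61.3 ± 2.78 CPM at 22.5 dpp, a difference within the spread, and Prdm9 likewise averaged 21.96 ± 3.21 and 20.1 ± 1.68 CPM. Stra8 was lower at 22.5 dpp (46.004 ± 6.41 CPM) than at 10.5 dpp (159.9 ± 6.77 CPM).

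Among somatic genes, Hsd3b6 averaged 0.918 ± 0.483 CPM at 10.5 dpp and 129.6 ± 21.5 CPM at 22.5 dpp. Hsd17b3 averaged 140.2 ± 40.6, 62.6 ± 9.65 and 11.4 ± 1.601 CPM, and 71.05 CPM over the 2 libraries of 36.5 dpp (50.8 and 91.3), below the 6.5 dpp mean. Amh went from 566 ± 118 and 369 ± 20.1 to 32.3 ± 7.96 CPM, H19 from 892 ± 90.3 and 490 ± 55.4 to 8.85 ± 5.74 CPM, and Mmp2 from 443 ± 25.2 and 156 ± 25.5 to 15.7 ± 5.11 CPM. In these 3 each age lay below the one before.

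**Figure D5:**
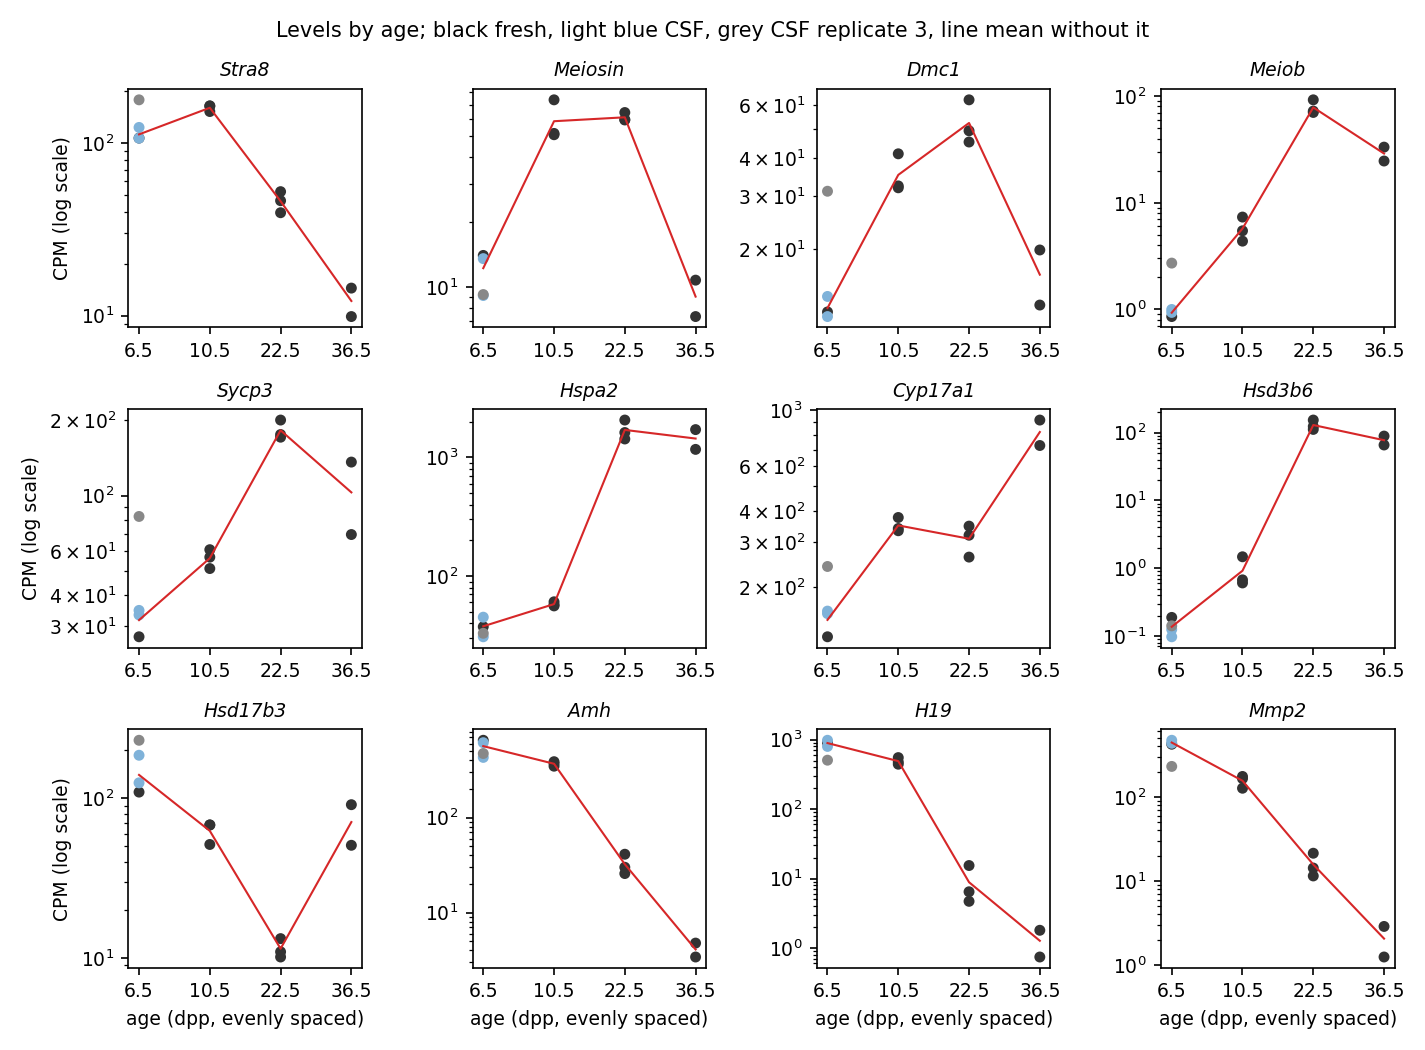
CPM on a log axis of 12 genes in testes of 4 ages from 6.5 to 36.5 dpp (evenly spaced), with 1 point per library, black for fresh, light blue for CSF and grey for CSF replicate 3, and a line through the means without that replicate. Meiob and Hsd3b6 keep climbing to 22.5 dpp, Meiosin stays level from 10.5 to 22.5 dpp, and Amh, H19 and Mmp2 go down at each step.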

How the data were processed

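RNA-seq of testis tissue was deposited as raw read counts per gene for the whole series. According to the submitters' processing notes, reads were demultiplexed with bcl2fastq 2.17.1.14, aligned with STAR 2.7.3a to GRCm38 (mm10) and counted with HTSeq 0.12.4. The authors prepared stranded poly-A libraries, and the strand setting of the counting is not given in the sources used here, so reads of a gene and an overlapping antisense gene may not be told apart. Single short reads can also be split between near-identical genes. Every per-sample column was matched to a sample (0 unassigned). In this comparison 7 libraries were used and 2 columns of 6.5 dpp were left out.

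Genes were tested with the edgeR 4.0.16 quasi-likelihood F test (R 4.3.3) after filterByExpr and TMM scaling, with age as the only factor and p-values adjusted by Benjamini-Hochberg across every tested gene. The SE of a log2 fold change was taken from its F value. CPM were computed on the library total, without scaling factors. DESeq2 1.42.0 and limma 3.58.1 (voom with sample quality weights) were alternatives, with other scalings, filters, sample sets, a replicate block and each library left out in turn. The repeat of all fits without 6.5 dpp CSF replicate 3, transcript length offsets and robust dispersions were added after the data were seen. The scripts were tested on simulated data. Single values were compared over samples, and p-values measure the spread between the deposited samples, whose depth of 28351546 to 54986423 counts leaves counting error small except for genes under about 1 CPM.

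The members and the gene lists were chosen with earlier results of these data known. The 12 genes named in each direction were to be those of smallest p at 4-fold and an adjusted p of at most 0.001 without overlap, filled up by p among genes at an adjusted p under 0.05 without overlap, with predicted genes counted but not named. With 7 libraries the rule gave no gene, so it was applied to the 6-library test after the values were seen. Members of the lists and genes the study names could also be named. Promoter sequences came from RefSeq (GRCm38.p6). Figures were drawn with matplotlib 3.10.9. Some members of the lists are not reported here.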

Additional observations from a re-analysis of the deposited data

Results flagged for a closer look

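In 7 of 56 groups of 4 libraries examined, 1 library lay far from the other 3 by Dixon's test at the 95% level. Chance alone marks about 1 of 20 groups when they are not chosen by their values. All 7 were the same library, 6.5 dpp CSF replicate 3. The undifferentiated spermatogonial genes summed to 796.1 CPM in it, against 1412 to 1493 CPM in the other 6.5 dpp libraries, the cholesterol genes to 2156 against 2732 to 2793 CPM, and the extracellular matrix genes to 10946 against 17994 to 19223 CPM. Meiob stood at 2.72 CPM against 0.856 to 0.997, Dmc1 at 31.1 against 12.0 to 14.0, Hfm1 at 8.22 against 5.16 to 5.55 and Pimreg at 50.5 against 35.7 to 38.2 CPM. These genes were named by their p in the test without CSF replicate 3, which favours genes with close values in the other 3 libraries. For them the rate of 1 in 20 does not hold. Its library total, ribosomal protein share and dependence on transcript length stood apart in the same library, and their part in these values was not tested.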

How the results depend on the processing

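The calls depended on which libraries of 6.5 dpp entered. With all 7 libraries edgeR gave 0 calls in either direction, and it gave between 0 and 494 higher and between 0 and 498 lower when each library was left out in turn, the upper ends being the values without CSF replicate 3. Without fresh replicate 2 it gave 2 and 1, without a filter on low counts 1 and 0, against the fresh library alone 1 and 0 and against the frozen ones alone 2 and 1. DESeq2 gave 303 and 330 (17 and 18 at 4-fold and an adjusted p of at most 0.001), voom with quality weights 785 and 706 (3 and 6), the fit on all distinct libraries 130 and 90 (2 and 2), and transcript length offsets 20 and 28. RLE factors, library size alone, a mean of at least 1 CPM, fresh replicate 1 added and robust edgeR left 0 and 0.

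Without CSF replicate 3 the 494 and 498 calls became 911 and 1038 by DESeq2 (19 and 19 at the stricter limit, where edgeR gave 0 and 0), 119 and 78 on all distinct libraries (4 and 1), 22 and 44 against the fresh library alone (1 and 4), and 0 and 0 with fresh replicate 1 added. The stricter limit gave 14 and 13 without a filter on low counts, 4 and 3 against the frozen libraries alone, and 0 and 1 by voom. Leaving out 1 more library gave 128 to 662 higher and 98 to 713 lower (0 to 1 in each direction at the stricter limit). Of 147 named genes called, 15, 23 and 37 lost their call without fresh replicate 2, CSF replicate 1 or CSF replicate 2, and 71, 84 and 72 without 10.5 dpp replicate 1, 2 or 3, and 0 turned sign. Genes that lost it in 5 of these 6 fits included Spo11, Msh4, Cntd1, Kctd19, Hormad1, Hormad2, Tex11, 4930432K21Rik, Amh, Krt18, Id4 and Mrc1. Meiosin, Meiob, Dmc1, Prdm9, Hfm1, Sycp2, Sycp3, Cyp17a1, Hsd17b1, Inhba and Mmp2 were among those that lost it in 0. RLE factors, library size alone, both filters, voom, the frozen libraries alone, transcript length offsets and robust edgeR stayed within 1.5 times the 494 and 498. The cause of these differences was not tested.

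Replicate numbers did not pair the libraries. Deviations of same-numbered libraries correlated at -0.16 to 0.041 with 7 libraries and at -0.027 to 0.087 with 6, and the replicate block gave 0 and 0 calls with 7 libraries and 69 and 49 with 6.

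With 6.5 dpp fresh replicate 1 added, the log2 fold change with all 7 libraries turned sign in 30 of 157 named genes, Meiob (-1.33), Zfp541 (-1.60), Tpbgl (-0.62), Hfm1 (-0.39), Tex101 (-0.29), Hspa2 (-2.17), Ybx2 (-3.81), Tsx (-1.55), Hsd3b6 (-0.40), Ptch1 (0.0645), Lrrn4 (-1.02), Meioc (-0.35), Kctd19 (-6.68), Sycp3 (-0.39), Sycp1 (-0.27), Sycp2 (-0.83), Syce1 (-0.54), Hormad1 (-0.79), Hormad2 (-0.42), Terb1 (-0.47), Kash5 (-1.45), Spo11 (-2.60), 4930432K21Rik (-0.00808), Msh4 (-0.72), Cntd1 (-2.98), Tdrd9 (-0.0987), Crabp1 (0.18), Star (0.0389), Spata22 (-0.61) and Mcf2 (-0.61). With limma voom and sample quality weights it turned in 4, Fdx1 (0.38), Hbb-bt (0.77), Crabp1 (0.41) and Star (0.12). Against the fresh library alone it turned in 3, Fdx1 (0.38), Hbb-bt (0.80) and Crabp1 (0.48). Against the frozen libraries alone it turned in 3, Cst12 (-0.0432), Hormad1 (-0.0204) and Hormad2 (-0.0425). With the replicate block it turned in 3, Ptch1 (0.12), Hbb-bt (0.21) and Crabp1 (0.0246). With transcript length offsets it turned in 2, Hbb-bt (0.39) and Crabp1 (0.35). With library size only it turned in 1, Crabp1 (0.0538). Leaving out each of the 7 libraries in turn moved the sign of Cst12 (-0.18 to 0.68), Fdx1 (-0.31 to 0.41), Ptch1 (-0.38 to 0.0123), Hbb-bt (-0.55 to 0.86), Hormad1 (-0.0841 to 0.91), Hormad2 (-0.0534 to 0.60), Crabp1 (-0.19 to 0.41), Rec8 (-0.00267 to 0.40), Star (-0.22 to 0.13) and Hsd3b1 (-0.0502 to 0.18). The limits are the 1 fresh library at 6.5 dpp, the partial overlap of age with freezing, and levels near the floor: genes such as Hsd3b6, Vsig4 and Kctd19 rest on few counts.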

Other observations

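Some groups that no list held were visible among the 494 genes that rose and the 498 that fell. They were picked out after their values were seen and are given without a test of the group. Besides Vsig4, other genes known from macrophages or their chemokines rose, namely Cd209g (3.13, adjusted p = 0.00587), Cd209f (2.63, adjusted p = 0.015), Ccl24 (1.37, adjusted p = 0.0182), Pf4 (0.96, adjusted p = 0.021), Ccl2 (1.78, adjusted p = 0.0294) and the eosinophil receptor Ccr3 (2.54, adjusted p = 0.011), all values log2 fold changes without CSF replicate 3. The class I antigen genes H2-D1 (0.99, adjusted p = 0.00399) and H2-K1 (0.72, adjusted p = 0.0322) rose as well, though reads of this family can be split between close copies. Pparg, the adipogenic nuclear receptor, rose (1.55, adjusted p = 0.00718).

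Esr2, oestrogen receptor β, stood at 6.01, 8.76 and 7.47 CPM in the 3 libraries at 6.5 dpp, 5.33 CPM in CSF replicate 3 and 2.36, 2.59 and 2.69 CPM at 10.5 dpp (log2 fold change -1.56 ± 0.18 (SE), adjusted p = 0.00348), Pgr, the progesterone receptor, fell by a log2 fold change of -1.28, adjusted p = 0.0163, and Greb1, a gene induced by oestrogen in other tissues, by -1.50, adjusted p = 0.00348. The pluripotency genes Pou5f1 (-0.83, adjusted p = 0.0119) and Dppa4 (-0.85, adjusted p = 0.0301) fell, as did the chromatin gene Hmgb2 (-2.53, adjusted p = 0.00402) and the stress cytokine gene Gdf15 (-2.39, adjusted p = 0.00667).

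On the X chromosome 48 of 661 genes tested rose (7.26%) and 20 fell (3.03%), where on the autosomes 2.85% of 15644 rose and 3.06% fell. Those that rose included Tex16, Rhox13, Esx1, Tktl1 and Tex11 and, outside the lists, Tex13d (2.60, adjusted p = 0.00408), Magea4 (1.15, adjusted p = 0.00881) and Mcf2 (2.69, adjusted p = 0.011). Of the 48, 35 were separate between the ages in all 7 libraries, as were 418 of all 494 genes that rose (84.6%). Over all tested genes of the X the share so separate and higher was 14.4%, and over autosomal genes 13.6%, a smaller gap than in the calls.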
